A study of Drosophila melanogaster with 140 samples.

Results

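Translating ribosome affinity purification (TRAP) of neurons from young fly brains was compared between control RNAi and Mettl3 RNAi. The libraries were chosen by their labels as the TRAP samples with the driver ElavGal4 at 5D, which gave 15 libraries of 140 in the series, 62 of them TRAP. They comprise 4 input and 3 IP libraries of control RNAi and 4 input and 4 IP libraries of Mettl3 RNAi. All flies carried ElavGal4 and UAS-RpL3-FLAG, so that a FLAG-tagged ribosomal protein was made in neurons of both genotypes. Controls carried mCherry RNAi, which has no target in the fly, and the knockdown carried Ime4 RNAi, Ime4 being an older name of Mettl3. The flies were males aged 5d, the brains of several flies were pooled for a sample, and no treatment was given beyond age and genotype. The comparison rests on a single knockdown genotype, so an effect of Mettl3 loss and one peculiar to the RNAi stock cannot be told apart. The labels number the replicates but do not say that they came from separate cultures, so the p-values measure the spread between these samples. ElavGal4 drives expression in neurons from development onward, so the hairpin was present before the adult age at which brains were taken. An IP holds RNA bound to FLAG-tagged ribosomes, and its input holds RNA of the whole brain lysate from the same sample. The IP/input ratio of a gene is called here its translational efficiency, as in the study, although it measures the presence of tagged ribosomes on RNA and not the synthesis of protein. It also depends on the share of a transcript that came from neurons, and in whole brains fewer cells of a type and less RNA per cell cannot be told apart.

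Mettl3 is the catalytic subunit of the complex that writes N6-methyladenosine (m6A) on messenger RNA while it is transcribed, together with Mettl14 and accessory proteins. The mark is read by YTH proteins, of which the fly has a nuclear one, Ythdc1, and a cytoplasmic one, Ythdf, and it can alter splicing, stability and translation of the RNA that carries it. In flies the writer complex is most prominent in the nervous system, where its loss impairs locomotion and alters Sxl splicing. Ribosomes that move along a coding sequence are held on it by cycloheximide, and the antibody against the tag then recovers those ribosomes with the RNA they sit on.

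The reads counted on genes ranged from 2132983 to 4972745 in the control IPs, from 5365030 to 8841677 in the Mettl3 RNAi IPs, from 6276125 to 9907388 in the control inputs and from 11438652 to 13249059 in the Mettl3 RNAi inputs. Depth thus separated the genotypes in both kinds of library, and the smallest library was the control IP of replicate 1. Nuclear rRNA, which a purification of ribosomes carries along, took 17.96%, 5.32% and 9.69% of the reads in the control IPs of replicates 1, 2 and 3 and 1.55% to 1.99% in the Mettl3 RNAi IPs (exact permutation test, two-sided, p = 0.0571, the smallest that 3 against 4 libraries allow). The mitochondrial transcript mt:lrRNA took 68.5% of control input 1 and 50.8% of control input 4, against 30.4% to 38.3% of the other 6 inputs. Replicate 1 of the control therefore stands apart in both its input and its IP, and results are given with and without it. Depth and rRNA moved with genotype, and their part in the results was not tested. With nuclear protein-coding genes alone in the fit, which called 1.57% of genes higher and 0.361% lower, all of the 115 called higher and all of the 28 called lower that are such genes kept their calls. The other 11 of 126 and 4 of 32 were not in that fit. Summed levels of 20 neuron markers were 10201 to 14796 CPM (counts per 1000000 reads, with library sizes scaled by TMM) in control IPs and 8278 to 9175 CPM in control inputs, and 11129 to 18652 CPM and 7872 to 9148 CPM with Mettl3 RNAi, so every IP was above every input. The 15 glia markers summed to 2321 to 2861 CPM in control IPs and 1573 to 1854 CPM in Mettl3 RNAi IPs. The inputs were at 3736 to 4597 CPM with control RNAi and at 3149 to 3564 CPM with Mettl3 RNAi. Glia markers were thus lower in every IP than in every input but not absent. Control libraries were above those of Mettl3 RNAi without overlap in the inputs as well as in the IPs. The sums of photoreceptor (19064 to 28456 CPM), muscle (97.3 to 290.3 CPM), fat body (381 to 1197 CPM) and hemocyte markers (184 to 257 CPM) overlapped between the genotypes in the IPs. In the inputs the photoreceptor markers summed to 34891 to 43170 CPM with control RNAi and 33695 to 43029 CPM with Mettl3 RNAi. For photoreceptor markers every IP was thus below every input, unlike for the neuron markers. The part of these sums in the results was not tested.

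**Figure D1:**
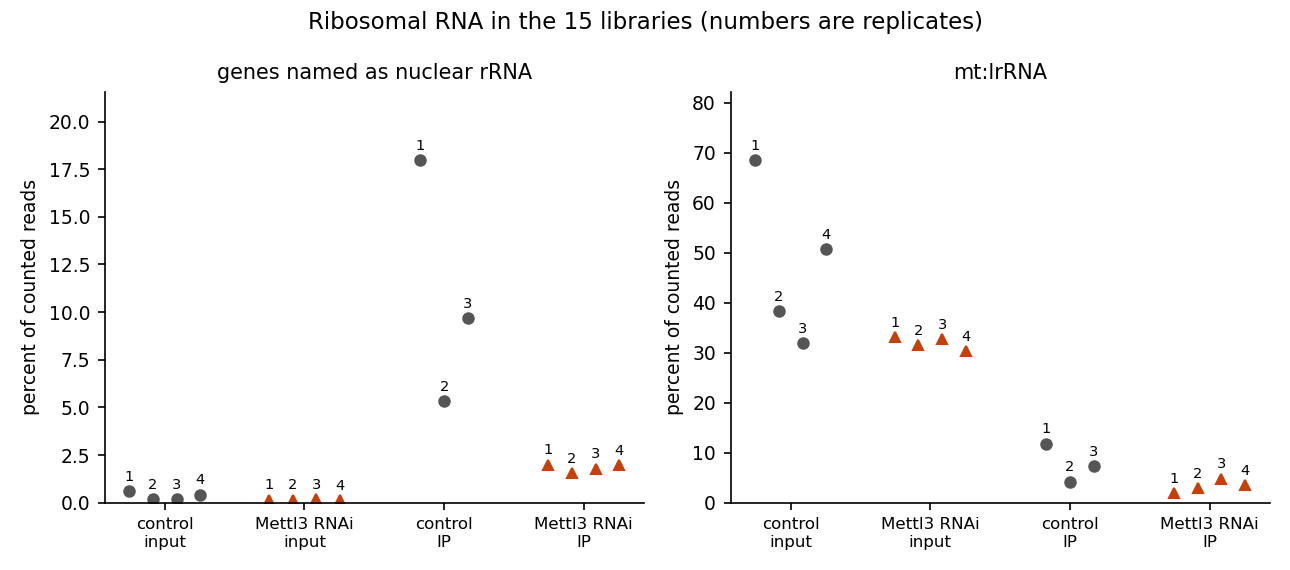
Percent of counted reads on genes named as nuclear rRNA (left) and on mt:lrRNA (right) in each of the 15 libraries, with replicate numbers above the points. Control IPs hold 5.32% to 17.96% nuclear rRNA against 1.55% to 1.99% in Mettl3 RNAi IPs, and control inputs 1 and 4 hold the most mt:lrRNA.

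Mettl3 itself was barely detected in these libraries, so the knockdown could not be read from them. Its level was 3.66, 0.86, 0.67 and 2.97 CPM in the control inputs and 1.81, 0.70, 1.59 and 1.02 CPM in the Mettl3 RNAi inputs (exact permutation test, two-sided, p = 0.4). In the IPs it was 2.57, 4.28 and 6.43 CPM for control RNAi and 3.002, 1.62, 0.467 and 2.61 CPM for Mettl3 RNAi (p = 0.171 by the same exact test). The groups overlapped in both kinds of library. In elavGFP+ neurons sorted at 5d in another experiment of the series, Mettl3 was at 10.3, 3.88 and 2.55 CPM with control RNAi and at 0.51, 2.04 and 0.18 CPM with Mettl3 RNAi, without overlap (exact permutation test, p = 0.1, the smallest that 3 against 3 allow). RpL3, whose tagged copy was used for the purification, was at 386, 476 and 494 CPM in the control IPs and at 663, 702, 676 and 609.8 CPM in the Mettl3 RNAi IPs. All Mettl3 RNAi IPs were above the controls (exact permutation test, p = 0.0571, the smallest possible), and the change of the RpL3 ratio, 0.49 ± 0.20 (log2, SE), missed the threshold (adjusted p = 0.232). The counts do not separate the tagged from the endogenous copy.

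Knockdown of Mettl3 was followed by a higher translational efficiency of 126 genes and a lower one of 32 among 10237 tested (edgeR's quasi-likelihood test on the paired IP and input, Benjamini-Hochberg adjusted p under 0.05). That is 1.23% of genes called higher and 0.313% called lower, and 16.4% had an unadjusted p under 0.05. The genes called higher were led by the phosphatase gene PRL-1, several antisense and long noncoding RNAs and Nlg3, a neuroligin of the postsynaptic membrane. Those called lower were led by Cyp4g1, by pseudogenes of 28S rRNA, by the mRNA 3' end processing factor su(f) and by the antimicrobial peptide gene DptB. Changes of called genes ran from 0.87 to 5.42 on the log2 scale with a median of 1.23 among those higher, and in size from 0.92 to 9.47 with a median of -1.31 among those lower. In all 126 and all 32 the per-pair ratios of the genotypes did not overlap, which was so for 9.58% of all genes in the higher direction and 6.45% in the lower.

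The number of calls depended on single replicates. Without control replicate 1 the same fit called 607 genes higher (5.72% of 10613) and 286 lower (2.69%), among them 126 of the 126 and 30 of the 32. Leaving out Mettl3 RNAi replicate 3 left 1 gene called in each direction, and leaving out replicate 4 left 1 higher and 2 lower. Without control replicate 2 the counts were 6 and 4, without Mettl3 RNAi replicate 2 they were 19 and 1, and without control replicate 3 they were 27 and 4. Without Mettl3 RNAi replicate 1 they were 176 and 41. Nlg3 stayed called as higher and Cyp4g1 as lower in each of these fits, and no other gene did, while the direction of all 158 genes stayed the same in each. When the libraries were scaled to the total reads in place of TMM, 4 were called higher and 7 lower and the median over all genes shifted to -0.25 from 0.02, so the changes below are relative to the bulk of genes. A test with limma on the 7 per-pair ratios, in place of the counts, called 0 genes, with 1606 at an unadjusted p under 0.05. DESeq2 called 322 higher and 135 lower, among them 123 and 30 of the same genes.

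Among the called genes the IPs moved more than the inputs. Of the 126 genes called higher, all had a positive change in the IPs alone, of which 35 were called. Their input changed by a median of -0.24, with 101 negative and 25 positive and 0 called in either direction by edgeR. Choosing genes by IP over input favours these signs, so they are given as a description. In control neurons the IP of the 126 genes was about level with their input. The median log2 IP/input ratio was -0.10, with 17 called above the input and 27 below it. With Mettl3 RNAi the median was 1.22 and 115 of the 126 were called above the input. Over all genes, 11.7% were called above and 13.3% below the input in controls, and 18.2% and 18.3% with Mettl3 RNAi. The 32 genes called lower went from a median of 0.35 in controls to -0.91 with Mettl3 RNAi, with 23 of them called below the input there.

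**Figure D2:**
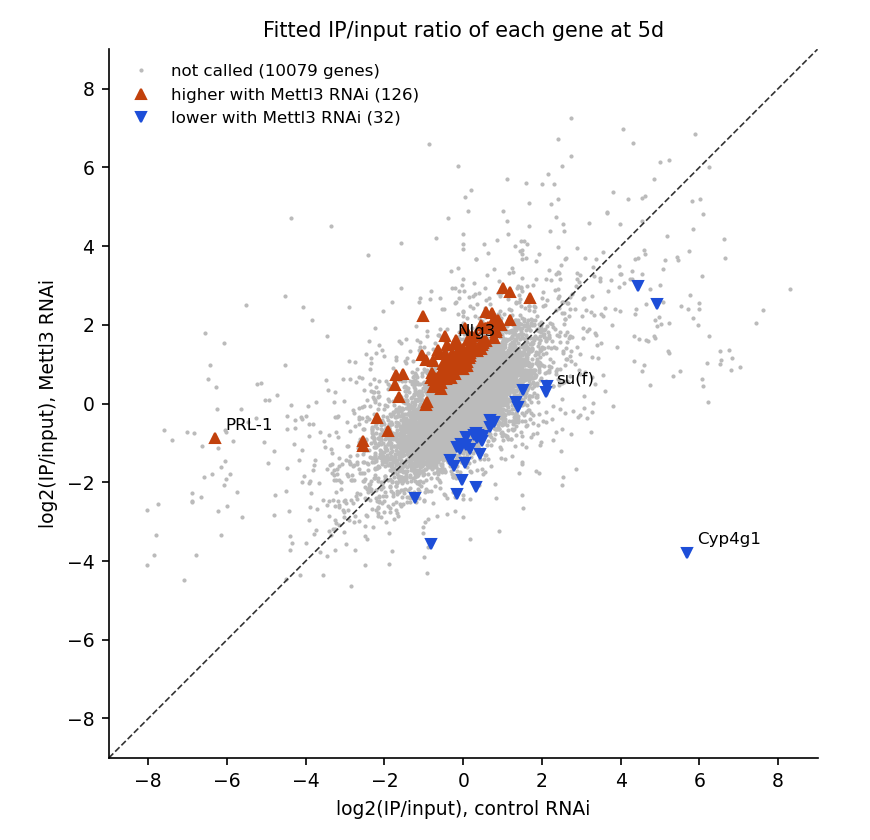
Fitted log2 IP/input ratio of each of the 10237 genes tested, with control RNAi on the x axis and Mettl3 RNAi on the y axis; the dashed line marks equal ratios. The 126 genes called higher (triangles up) lie mostly near 0 on the x axis and above 0 on the y axis, and the 32 called lower (triangles down) lie below the line.

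Nlg3 (FBgn0083963; dm6 chromosome 3R, 7570281 to 7639434, minus strand) had the smallest adjusted p of the genes called higher. Neuroligins sit in the postsynaptic membrane and bind neurexins across the cleft. Its input was at 56.2, 78.9, 81.9 and 51.2 CPM in control RNAi replicates 1 to 4 and at 66.8, 69.9, 87.7 and 71.9 CPM with Mettl3 RNAi. The IP was at 29.8, 76.7 and 61.4 CPM with control RNAi and at 143, 193, 328 and 206 CPM with Mettl3 RNAi. The inputs overlapped and the IPs did not, with every Mettl3 RNAi IP above every control. Its log2 ratio was -0.91, -0.04 and -0.41 in the control pairs and 1.10, 1.46, 1.90 and 1.51 in the Mettl3 RNAi pairs, a change of 1.91 ± 0.26 (adjusted p = 0.00711), and of 1.71 without control replicate 1 (adjusted p = 0.000118).

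Among other cell surface genes called higher, Connectin (Con; FBgn0005775; chromosome 3L, 4936758 to 5079033), a leucine-rich repeat adhesion protein, had ratios of -0.47, 0.18 and -0.04 in control pairs and 0.93, 1.26, 1.81 and 1.52 in Mettl3 RNAi pairs, a change of 1.48 ± 0.25 (adjusted p = 0.011). The immunoglobulin protein gene dpr1 (FBgn0040726; chromosome 2R, 20698483 to 20750442) went from -0.46, 0.30 and 0.46 to 1.41, 1.31, 1.48 and 1.35, a change of 1.27 ± 0.24 (adjusted p = 0.0174). Neither gene's groups overlapped, and the inputs of both were somewhat lower with Mettl3 RNAi (-0.61 and -0.67, both with adjusted p = 0.0823). These 2 genes, CG14989 and CG42541 are named by the rule for the difference from glia. CG14989 changed by 1.38 ± 0.21 (adjusted p = 0.00874) and CG42541 by 1.02 ± 0.20 (adjusted p = 0.02).

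PRL-1 (FBgn0024734; chromosome 2L, 16245835 to 16257606, minus strand) encodes a protein tyrosine phosphatase studied in flies for synapse formation. It gave 0, 1 and 0 reads in the control IPs and 49, 67, 67 and 61 reads in the Mettl3 RNAi IPs, with 10 to 72 reads in the control inputs and 93 to 156 in the Mettl3 RNAi inputs. The pooled reads of the IPs, 1 against 244, gave a ratio of IP levels of 77.5 (95% exact interval for counting error 13.8 to 3072). CG46309 shares exonic sequence with it on the same strand. Its fitted ratio change of 5.42 ± 0.95 (log2, adjusted p = 0.0133) rests on these few control reads and on the prior count. Without control replicate 1 the change was 5.35.

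PNPase (FBgn0039846; chromosome 3R, 31401560 to 31405452, minus strand), a mitochondrial exoribonuclease, had IP levels of 19.5, 13.8 and 19.1 CPM with control RNAi and 37.1, 57.2, 118 and 62.7 CPM with Mettl3 RNAi. Its log2 ratios of -1.08, -0.43 and 0.02 became 1.23, 1.72, 2.13 and 1.73, a change of 2.19 ± 0.32 (adjusted p = 0.00874). Exons of Gcn2 and Gprk2 overlap it on the other strand, and without a stated strand setting their reads cannot be told apart. Atu (FBgn0019637; chromosome 3R, 5613358 to 5615939), the fly Leo1 of the Paf1 transcription elongation complex, changed by 2.18 ± 0.51 (adjusted p = 0.0464) with IP levels of 1.85 to 4.11 CPM in controls and 9.74 to 16.0 CPM with Mettl3 RNAi. It shares exonic sequence with asRNA:CR46135.

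CG13330 (FBgn0033848; chromosome 2R, 13515259 to 13517452) changed by 2.29 ± 0.37 (adjusted p = 0.0104) and overlaps Vmat, the vesicular monoamine transporter gene, on the opposite strand. CG13300 (FBgn0035699; chromosome 3L, 6329324 to 6352390) changed by 2.07 ± 0.39 (adjusted p = 0.0177), from ratios of -0.57, -1.19 and -0.95 to 0.78, 1.14, 1.23 and 1.24. CG17075 (FBgn0031239; chromosome 2L, 259949 to 267505) changed by 1.86 ± 0.42 (adjusted p = 0.0381) and overlaps lncRNA:CR44219. In each of these 3 genes every Mettl3 RNAi pair had a positive ratio, and no control pair had.

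Of the 15 genes with the largest positive changes, 8 were noncoding RNAs. The bantam host transcript lncRNA:CR43334 (FBgn0286827; chromosome 3L, 628435 to 643900), which contains the microRNA gene mir-ban, was at 16.4, 10.1 and 6.87 CPM in control IPs and at 29.0, 23.0, 33.0 and 27.9 CPM in Mettl3 RNAi IPs. Its inputs were at 2.36 to 6.14 CPM, and its ratio changed by 1.92 ± 0.42 (adjusted p = 0.0344). lncRNA:CR44985 (chromosome 2L, 5326504 to 5326832) changed by 2.28 ± 0.35 (adjusted p = 0.00874) and lies opposite exons of Ncoa6, a nuclear receptor coactivator. Of the other 6, asRNA:CR45135 (2.42, opposite lola), lncRNA:CR44991 (1.98, opposite emb), asRNA:CR43959 (1.87, opposite Hk), asRNA:CR45009 (1.81, opposite FucTC) and asRNA:CR45208 (1.80, opposite RASSF8) overlap coding genes. Only lncRNA:CR45758 (1.86 ± 0.38, adjusted p = 0.0226) had no overlapping exon in the annotation. Reads on the overlapping ones may belong to the coding partner, since the strand setting of the counting is not given. Over 684 noncoding RNAs tested, 11 were called higher (1.61%) and 2 lower (0.292%), near the 1.23% and 0.313% of all genes. By annotated class, 0 of 660 ncRNAs and 2 of 77 pseudogenes were called lower. The median change of the noncoding RNAs was 0.35 against 0.02 over all genes. Without control replicate 1 the counts were 57 and 6 of 759, where 5.72% and 2.69% of all genes were called.

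**Figure D3:**
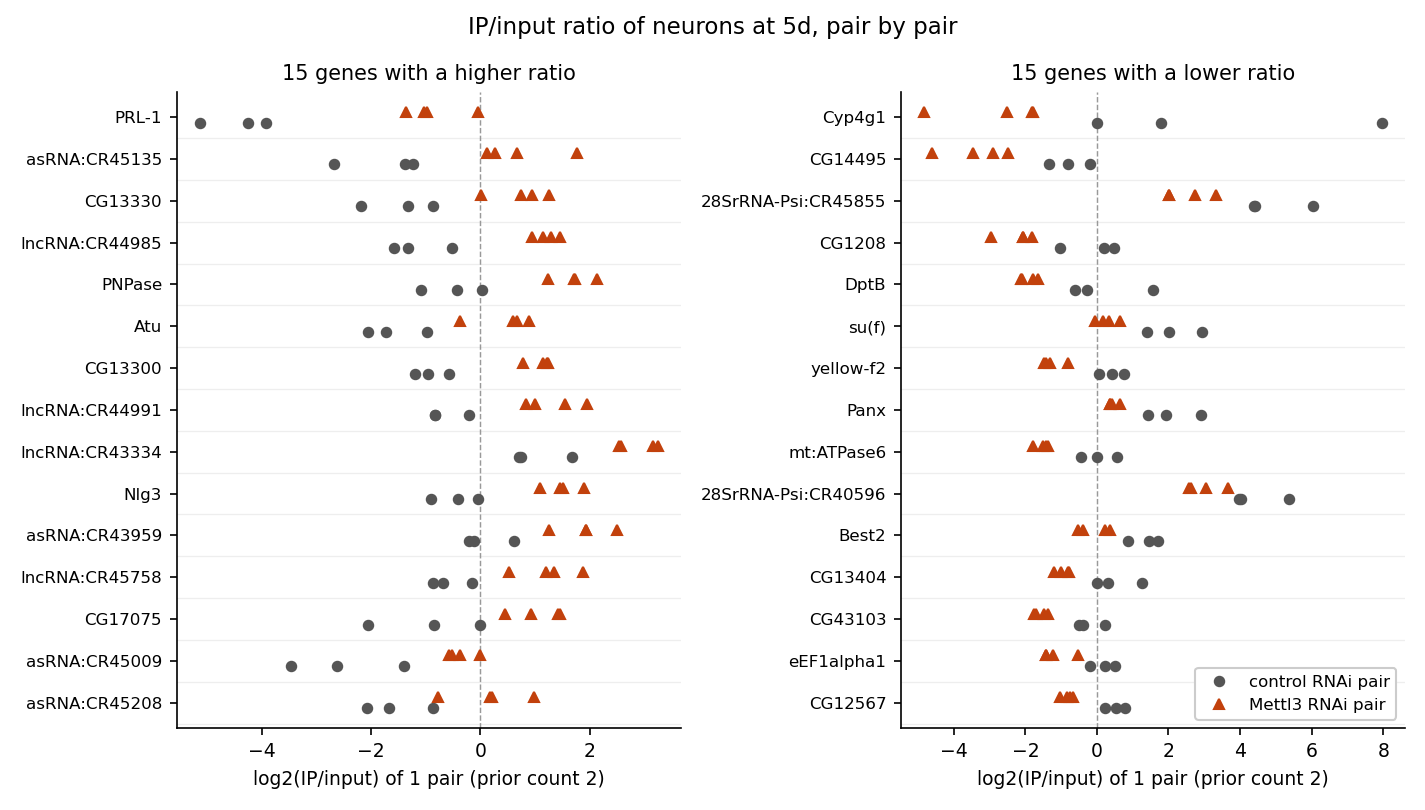
Log2 IP/input ratio of each pair for the 15 genes with the largest positive (left) and the 15 with the largest negative change (right) among called genes with at least 10 CPM in 1 group of libraries; circles are the 3 control RNAi pairs and triangles the 4 Mettl3 RNAi pairs. Genes were plotted only where the genotypes do not overlap, a condition that all called genes met. Cyp4g1 has 1 control pair, at 7.96, far from the others, and another control pair without reads in either library.

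Cyp4g1 (FBgn0010019; chromosome X, 467057 to 469335, minus strand), a cytochrome P450 of oenocytes that makes cuticular hydrocarbons, had the largest fitted change, -9.47 ± 1.24 (adjusted p = 0.00711). It gave 437, 22 and 0 reads in the control IPs and 5, 13, 3 and 3 in the Mettl3 RNAi IPs, and 2, 6, 0 and 0 reads in the control inputs against 22, 401, 25 and 37 in the Mettl3 RNAi inputs. Its level thus rests on the control IP of replicate 1 and the Mettl3 RNAi input of replicate 2, and without control replicate 1 the change was -5.62 (adjusted p = 0.00256). It was too rare in the IPs to be tested there alone.

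su(f) (FBgn0003559; chromosome X, 23096771 to 23101431), the fly CstF77 of the cleavage and polyadenylation machinery, was at 168, 62.6 and 71.1 CPM in the control IPs and at 40.7, 36.2, 25.9 and 31.7 CPM in the Mettl3 RNAi IPs. Its inputs were at 17.4 to 23.6 CPM and 22.9 to 32.8 CPM, so that all control IPs were above all other libraries. The ratio changed by -1.81 ± 0.33 (adjusted p = 0.0156), and by -1.44 without control replicate 1 (adjusted p = 0.00188). Panx (FBgn0034617; chromosome 2R, 21310368 to 21312354), a piRNA pathway factor for silencing of transposons, changed by -1.68 ± 0.41 (adjusted p = 0.0491), from ratios of 1.44, 2.91 and 1.93 to 0.65, 0.36, 0.41 and 0.37. It overlaps Arms on the opposite strand.

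eEF1alpha1 (FBgn0284245; chromosome 2R, 11891135 to 11895762), the elongation factor that brings aminoacyl-tRNA to the ribosome, had IP levels of 4898, 2144 and 2314 CPM with control RNAi and 1795, 818, 907 and 749 CPM with Mettl3 RNAi. Its inputs were at 1979 to 3460.2 CPM and 1993 to 2603 CPM. Every Mettl3 RNAi IP was below every control IP while the inputs overlapped, and the ratio changed by -1.33 ± 0.26 (adjusted p = 0.0198), by -1.18 without control replicate 1. It was the 1 translation factor called among 44 tested, and their median change was 0.12.

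DptB (FBgn0034407; chromosome 2R, 18867391 to 18867895), an antimicrobial peptide of the Imd response, changed by -1.89 ± 0.42 (adjusted p = 0.0377) and overlaps CG43109. Its inputs ranged from 3.32 to 31.8 CPM with control RNAi and from 16.0 to 60.4 CPM with Mettl3 RNAi, a wide spread between replicates. It was the only one of 32 Toll and Imd genes called, with a median over the list of -0.31. AttB and Drs, 2 other antimicrobial peptides, had changes of -1.39 and -1.42 that missed the threshold (adjusted p = 0.0862 and 0.0813).

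The rest of the 15 genes with the largest negative changes, among those called with at least 10 CPM in 1 group of libraries, were yellow-f2, which encodes a dopachrome conversion enzyme (-1.70 ± 0.40), the bestrophin Best2 (-1.46 ± 0.35), and CG14495 (-2.74 ± 0.59), CG1208 (-2.13 ± 0.49), CG13404 (-1.43 ± 0.30), CG43103 (-1.36 ± 0.32) and CG12567 (-1.33 ± 0.28), with adjusted p-values of 0.0259 to 0.0482. Exons of other genes overlap CG14495, CG1208, CG13404 and CG43103, whose reads cannot be told apart from theirs. CG12567 (chromosome 2L, 23161122 to 23174484) does not, and its IP fell from 39.5, 36.2 and 33.9 CPM to 17.9, 14.5, 12.5 and 16.1 CPM (IP alone -1.30 ± 0.24, adjusted p = 0.0274).

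Mitochondrially encoded transcripts, which are translated inside mitochondria and not by the tagged cytosolic ribosome, had a median change of -0.85 over 27 tested. Of these, 2 were called lower (7.41%, against 0.313% of all genes), mt:ATPase6 and mt:Cyt-b, and 0 higher. In 13 of the 27 the genotypes did not overlap in the lower direction, which was so for 6.45% of all genes. Without control replicate 1 the count called lower was 8 of 28, against 2.69% of all genes. mt:Cyt-b (position 10499 to 11635 of the mitochondrial genome), a subunit of complex III, was at 2987, 2472 and 2627 CPM in control IPs and at 1054, 820.0, 1126 and 1235 CPM in Mettl3 RNAi IPs, with inputs of 5020.1 to 7074 CPM. Its ratio changed by -1.18 ± 0.23 (adjusted p = 0.0205). mt:ATPase6 (position 4062 to 4736), an ATP synthase subunit that shares reads with mt:ATPase8 and mt:CoIII, changed by -1.56 ± 0.26 (adjusted p = 0.0104). Among pseudogenes, 28SrRNA-Psi:CR45855 changed by -2.40 ± 0.39 (adjusted p = 0.0104) and 28SrRNA-Psi:CR40596 by -1.47 ± 0.34 (adjusted p = 0.0457), and both lost the call without control replicate 1 (adjusted p = 0.0865 and 0.0679). They are near-identical copies among which reads cannot be assigned with certainty, and the part of the rRNA share in their change was not tested.

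Genes called higher were long. Among 9410 nuclear protein-coding genes with a matched length, the exons summed to a median of 2131.5 nt, against 6945 nt for the 115 called higher and 2023 nt for the 28 called lower. The exon length in excess of the longest coding sequence was 3874 nt in the median for those higher, 885 nt for those lower and 571 nt over all. The coding length was 2466, 1200 and 1386 nt. Exon length joins the exons of all transcripts of a gene, and coding length is the longest of any single transcript. The excess can thus include coding exons of other transcripts and is not the length of untranslated regions. When these genes were split by exon length into 5 groups of like size, the group of longest genes, 4208 to 71820 nt, held 94 of the 115, which is 4.99% of its genes, and its median change was 0.36. The other groups, from the shortest up, held 2, 1, 4 and 14, with medians of -0.08, -0.12, -0.08 and 0.04. Without control replicate 1 the longest group held 393 of 547 genes called higher.

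In each of the 7 pairs the longest group had the highest median ratio of the 5. The median log2 ratio was 0.20, 0.14 and 0.13 in the control pairs and 0.38, 0.33, 0.76 and 0.56 in the Mettl3 RNAi pairs, without overlap. In the shortest group the medians were -0.14, 0.00 and 0.03 against -0.07, 0.05, -0.10 and -0.12, which overlap. The change of the longest group was 0.24 in the IPs alone and -0.04 in the inputs alone. At 34d it was 0.06, and in glia at 5d it was -0.17. Fragment length and RNA integrity were not analysed here, and their part in this pattern was not tested.

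**Figure D4:**
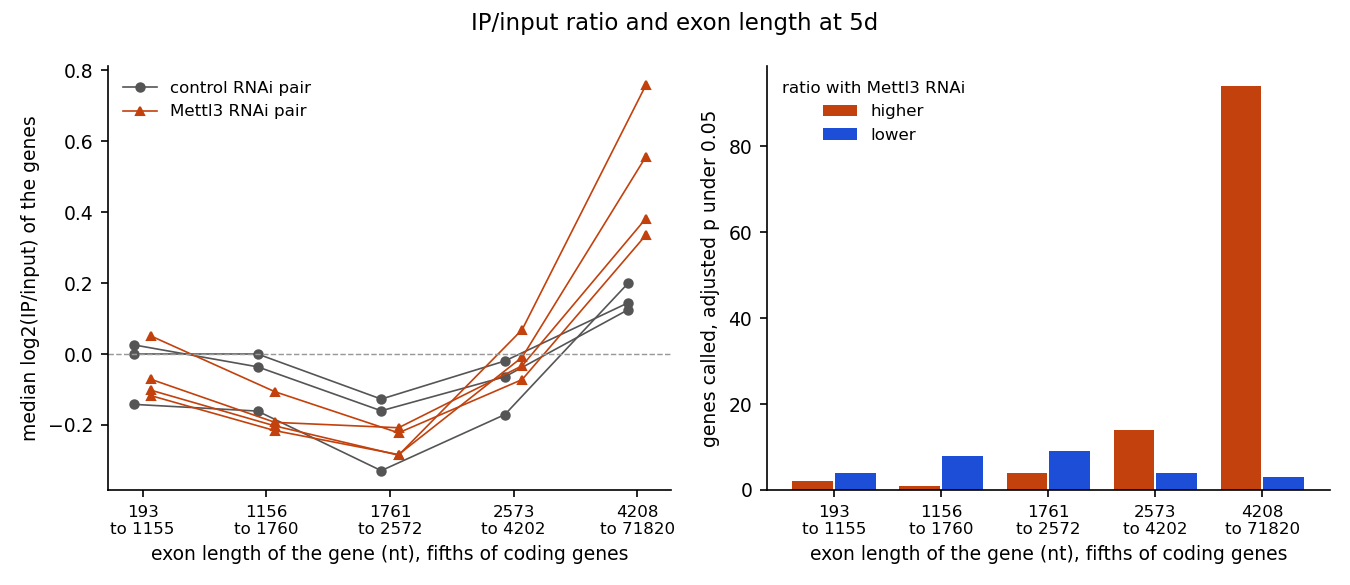
Left, median log2 IP/input ratio of nuclear protein-coding genes in 5 groups by exon length (nt, 1879 to 1884 genes each) for each of the 7 pairs; right, the number of genes called higher and lower in each group. The Mettl3 RNAi pairs separate upward from the controls in the longest group, which also holds 94 of the 115 coding genes called higher.

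Transcripts that carry m6A were defined from head libraries of another experiment in the series, in which 1490 genes (14% of those tested) had a lower m6A-IP/input ratio with Mettl3 RNAi at 5d and 5.03% a higher one. In young neurons 1427 of them were tested, of which 56 were called higher and 1 lower, with a median change of 0.23. The other 8810 genes had 70 called higher and 31 lower and a median of -0.01. Of all genes called higher 44.4% were m6A transcripts, which made up 13.9% of genes tested. Pair by pair, m6A transcripts differed in their median ratio from the genes without such a call by -0.02, -0.09 and -0.09 with control RNAi and 0.15, 0.06, 0.29 and 0.18 with Mettl3 RNAi. The genotypes did not overlap, and the difference of the medians, 0.235, lay between 0.185 and 0.278 when single replicates were left out. Without control replicate 1 the calls among m6A transcripts were 195 higher and 26 lower of 1438. The other genes then had 411 higher and 260 lower of 8807, and 5.72% and 2.69% of all genes were called. At 34d the median change of m6A transcripts was 0.03 with 0 called, and in glia at 5d it was -0.10. The other genes had medians of 0.01 at 34d and 0.02 in glia.

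Length and m6A went together in part. In the longest group of coding genes 520 were m6A transcripts, of which 41 were called higher with a median change of 0.53, and 1362 were not, of which 53 were called higher with a median of 0.30. In the group below, m6A transcripts had a median of 0.17 and the others 0.01. In the shortest group the medians were 0.02 and -0.08, with 0 of 97 m6A transcripts called. Of the genes named here, the m6A-IP/input ratio in heads fell with Mettl3 RNAi for Nlg3 (-0.88, adjusted p = 3.83e-06), PRL-1 (-2.67, adjusted p = 2.94e-09), Pdp1 (-0.84, adjusted p = 9.59e-06), dally (-0.80, adjusted p = 2.87e-06), GluRIB (-0.87, adjusted p = 3.01e-05) and fne (-0.55, adjusted p = 0.00119). For PNPase (0.17, adjusted p = 0.624), pum (-0.20, adjusted p = 0.238), pros (0.10, adjusted p = 0.581) and RpL22 (0.20, adjusted p = 0.239) the change did not pass the test.

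Of 20 neuron markers 2 were called higher (10%, against 1.23% of all genes) and 0 lower, with a median of 0.61. Without control replicate 1, 9 were called higher, where 5.72% of all genes were. The ELAV family RNA-binding protein gene fne was at 725, 818 and 736 CPM in control IPs and at 909.7, 917, 1416 and 1118 CPM in Mettl3 RNAi IPs, with inputs of 499 to 565 and 332 to 438 CPM. Its ratio changed by 1.04 ± 0.21 (adjusted p = 0.0205). The microtubule-binding protein gene futsch changed by the same amount, 1.04 ± 0.23 (adjusted p = 0.0358), from ratios of -0.11, -0.49 and -0.46 to 0.37, 0.44, 1.14 and 0.79.

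The voltage-gated ion channels, which carry action potentials and trigger release, had a median of 0.68 over 20 genes. Of these 0 were called by edgeR in either direction (11 higher and 0 lower at an unadjusted p under 0.05). DESeq2 called 7 higher, and edgeR called 12 higher without control replicate 1. Of all 10237 genes, 1011 were higher and 665 lower at an unadjusted p under 0.05, and DESeq2 called 322 higher. Without control replicate 1, 5.72% of all genes were called higher. Of the 29 lists, the 7 fat body markers tested had a higher median than the ion channels, 0.74, also with 0 called by edgeR (3 higher and 1 lower at an unadjusted p under 0.05), and with 2 called higher and 1 lower by DESeq2. Pair by pair, the median of the ion channels minus that of other genes was 0.71 to 1.46 with control RNAi and 1.21 to 1.95 with Mettl3 RNAi, which overlap. The calcium channel gene cac (0.83 ± 0.20, adjusted p = 0.0537), the sodium channel gene para (0.86 ± 0.24, adjusted p = 0.0833) and its partner tipE (1.03 ± 0.26, adjusted p = 0.0637) lay just outside the threshold. The potassium channel genes SK and Shaw had changes of 0.79 and 1.04 (adjusted p = 0.0674 and 0.0807). cac was at 299, 294 and 283 CPM in control IPs and at 469, 316, 521 and 429 CPM in Mettl3 RNAi IPs, without overlap.

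Of 33 neurotransmitter receptors 3 were called higher (9.09%, against 1.23% of all genes) and 0 lower, with a median of 0.51. Without control replicate 1, 11 were called higher, where 5.72% of all genes were. GluRIB, an AMPA-type glutamate receptor subunit (chromosome 3L, 9251978 to 9288522), was at 73.9, 64.1 and 54.7 CPM in control IPs and at 111, 145, 218 and 208 CPM in Mettl3 RNAi IPs, while its inputs overlapped at 38.6 to 50.2 CPM. Its ratio changed by 1.33 ± 0.25 (adjusted p = 0.0174), and the IP alone by 1.35 (adjusted p = 0.038). The nicotinic acetylcholine receptor subunits nAChRalpha6 (0.98 ± 0.21, adjusted p = 0.0335) and nAChRalpha7 (0.99 ± 0.22, adjusted p = 0.0377) were the others. The serotonin receptor gene 5-HT1A had a change of 1.35 ± 0.36 that missed the threshold (adjusted p = 0.0755).

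The 23 genes of the synaptic release machinery had a median of 0.11 (0.25 without control replicate 1) with 0 called by edgeR (7 higher and 0 lower at an unadjusted p under 0.05) and 4 called higher by DESeq2, the vesicle protein genes nSyb (0.67, adjusted p = 0.111) and Sap47 (0.80, adjusted p = 0.0718) among them. The 28 neuropeptide genes had a median of -0.12 with 0 called by edgeR (2 higher and 3 lower at an unadjusted p under 0.05) and 1 called lower by DESeq2, and Mip, a myoinhibitory peptide, was at -1.02 (adjusted p = 0.086). The 15 glia markers had a median of -0.23 with 0 called by edgeR (0 higher and 3 lower at an unadjusted p under 0.05) and 2 called lower by DESeq2, with the smallest p for the GABA transporter gene Gat (-0.81, adjusted p = 0.118) and the sodium pump subunit nrv2 (-0.70, adjusted p = 0.105). Genes higher in sorted repoGFP+ cells than in repoGFP- cells (13.3% of genes tested were called higher there, 4.77% lower), with an absolute log2 difference over 2, numbered 781 tested here. Of these 3 were called higher (0.384%, against 1.23% of all genes) and 5 lower (0.64%, against 0.313%), with a median of -0.08. The 27 genes on the repoGFP- side had 0 called by edgeR (4 higher and 1 lower at an unadjusted p under 0.05), 1 called higher by DESeq2 and a median of 0.41.

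Signaling genes that the study singled out, among them Wnt, EGFR and Hippo components, had 2 called higher of 15 (13.3%, against 1.23% of all genes). Their median was 0.35 (0.53 without control replicate 1). The study chose that list on libraries of this series, so it is not independent of them. pros (chromosome 3R, 11328480 to 11407627), a homeodomain transcription factor of neural differentiation, was at 864, 707 and 706 CPM in control IPs and at 1200.3, 1879, 3352 and 2228 CPM in Mettl3 RNAi IPs. Its inputs overlapped at 781 to 1088 CPM, and its ratio changed by 1.48 ± 0.26 (adjusted p = 0.0152). dally, a glypican that binds Wnt and BMP ligands, changed by 1.34 ± 0.27 (adjusted p = 0.0205) and had lower inputs with Mettl3 RNAi (130 to 157 CPM against 188 to 337 CPM). Plc21C (0.92) and sd (0.79) missed the threshold (adjusted p = 0.0969 and 0.105).

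Among genes of mRNA decay, pum, which represses translation of bound mRNAs (chromosome 3R, 9066343 to 9237682), had ratios of 0.00, 0.23 and -0.01 in control pairs and 0.83, 1.12, 1.46 and 1.48 in Mettl3 RNAi pairs, a change of 1.15 ± 0.22 (adjusted p = 0.0174), and was the 1 gene called of 14 decay genes with a median of 0.49. The bZIP factor gene Pdp1, an activator in the circadian clock (chromosome 3L, 7811458 to 7867369), changed by 1.33 ± 0.23 (adjusted p = 0.0131), with IP levels of 545 to 599.7 CPM against 687 to 1251 CPM. It was the 1 called of 10 clock genes with a median of -0.19, and per was at -1.21 (adjusted p = 0.0869).

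Of 82 cytosolic ribosomal protein genes 1, RpL22, was called higher (1.22%, near the 1.23% of all genes) and 0 lower. The median was 0.09, and -0.17 without control replicate 1. RpL22 was at 32.9, 43.3 and 58.9 CPM in control IPs and at 127, 191, 240.3 and 159.9 CPM in Mettl3 RNAi IPs, and its input was at 174 to 335 and 347 to 389 CPM. It changed by 1.47 ± 0.26 (adjusted p = 0.0133), and the IP alone by 1.94 (adjusted p = 0.0158). Of 66 nuclear genes of oxidative phosphorylation 1 was called, ATPsynCF6 of the ATP synthase (0.91 ± 0.22, adjusted p = 0.0489), with a median of 0.15 that was 0.0052 without control replicate 1. The 7 genes of the m6A writer complex had 0 called by edgeR and a median of -0.26, with 0 at an unadjusted p under 0.05 and 0 called by DESeq2. The 3 reader genes had 0 called by edgeR, with 1 lower at an unadjusted p under 0.05 and 1 called lower by DESeq2. Ythdc1, the nuclear reader, had ratios of 2.49, 0.95 and 0.58 in control pairs and 0.14, -0.07, 0.52 and 0.38 in Mettl3 RNAi pairs, without overlap, a change of -1.06 ± 0.35 that missed the threshold (adjusted p = 0.136).

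**Figure D5:**
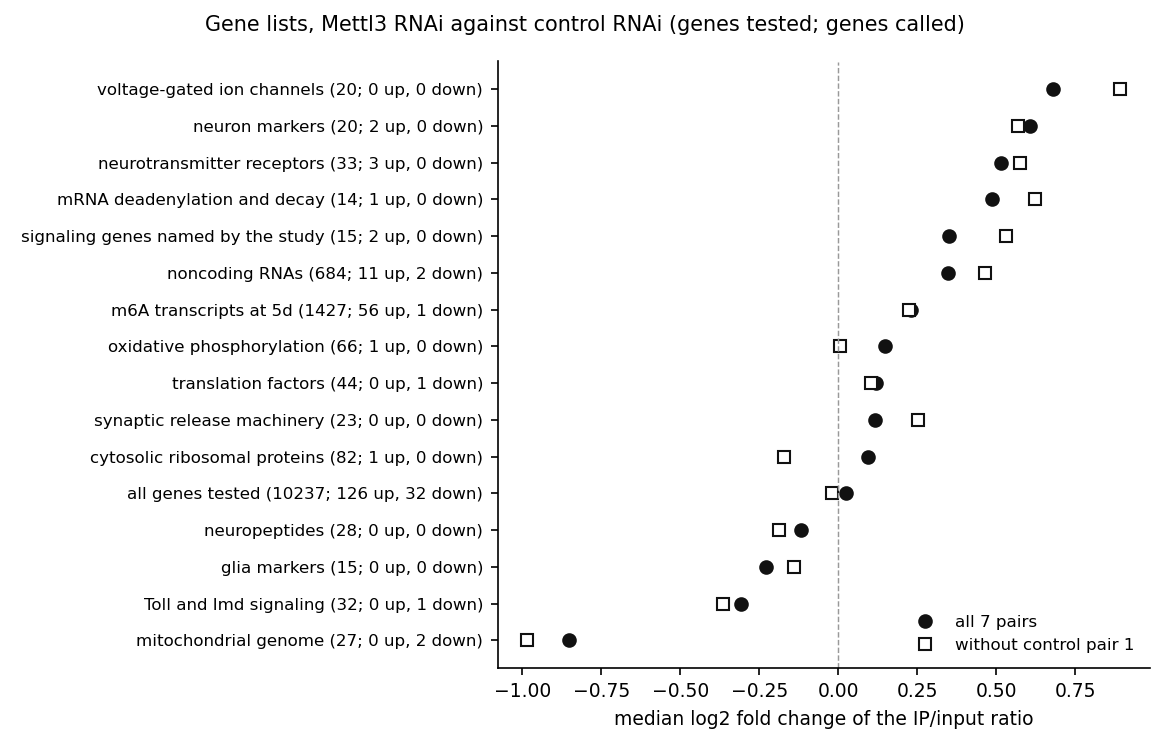
Median log2 change of the IP/input ratio with Mettl3 RNAi for 15 gene lists and all genes tested, with all 7 pairs (filled circles) and without control pair 1 (open squares); the labels give the genes tested and the genes called up and down. Of the lists plotted, ion channels (0.68), neuron markers (0.61) and receptors (0.51) lie highest and the mitochondrial genome (-0.85) lowest, with all genes at 0.02.

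Ribosome-bound RNA taken alone, from the same IP libraries, had 62 genes called higher (0.657% of 9440) and 119 lower (1.26%), with 24.1% at an unadjusted p under 0.05. Scaled to total reads in place of TMM, the calls were 276 higher and 45 lower, with the median over all genes at 0.28. Without control replicate 1 the counts were 405 (4.1%) and 442 (4.47%), and without Mettl3 RNAi replicate 2, 3 or 4 they were 0 and 2 to 4. The cGAS-like receptor gene cGlr2, listed as CG30424, was at 0.513, 4.42 and 5.76 CPM in the control IPs and at 39.2, 23.8, 28.5 and 27.8 CPM in the Mettl3 RNAi IPs, a change of 2.88 ± 0.44 (adjusted p = 0.0168). Its inputs also separated, at 2.68 to 12.7 and 16.4 to 20.7 CPM, so its ratio changed by only 0.63 ± 0.60 (adjusted p = 0.657). mfr, a ferlin known from fly sperm (2.36 ± 0.39, adjusted p = 0.0242), and Rbm13, an RNA-binding protein gene (2.34 ± 0.51, adjusted p = 0.0454), were also higher, along with lncRNA:CR44985 and lncRNA:CR45758.

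The IP genes that fell most were rRNA pseudogenes (28SrRNA-Psi:CR40596 at -3.55, CR45855 at -3.46 and CR45859 at -3.18), the larval storage protein gene Lsp1gamma (-3.48 ± 0.72, adjusted p = 0.0392) and mt:tRNA:Ala-TGC (-3.22 ± 0.31, adjusted p = 0.00238). Lsp1gamma, a product of fat body, was at 30.3, 4.70 and 6.21 CPM in control IPs and at 0.487 to 1.77 CPM with Mettl3 RNAi, and its inputs were at 9.58 to 23.5 and 1.41 to 8.84 CPM. Summed fat body markers were highest in the control input of replicate 1, at 1919.7 CPM, and their part in this result was not tested.

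Input RNA taken alone had 6 genes called higher (0.0634% of 9462) and 12 lower (0.127%), with 17.3% at an unadjusted p under 0.05, and without control replicate 3 the counts were 90 and 259. CG42369 was at 37.9, 61.8, 44.8 and 37.2 CPM in control inputs and at 185, 175, 123 and 139 CPM in Mettl3 RNAi inputs (1.75 ± 0.18, adjusted p = 0.00181). Tina-1 (1.44 ± 0.18), the cytochrome P450 gene Cyp6a9 (2.02 ± 0.34), snRNP-U1-70K of the U1 spliceosome particle (1.14 ± 0.19) and RagC-D, a Rag GTPase of amino acid signaling to TORC1 (1.02 ± 0.18), were also higher. The P450 genes Cyp4e3 (-2.43 ± 0.37) and Cyp4p1 (-1.86 ± 0.33), CG32756 (-1.51 ± 0.27), CG6321 (-1.13 ± 0.17) and CG7504, the fly senataxin helicase (-1.12 ± 0.17), were lower. Their adjusted p-values lay between 0.00181 and 0.0451, and none of the 10 was called in the ratio. Cyp4e3 was at 11.8 to 22.6 CPM in control inputs and 1.86 to 5.32 CPM in Mettl3 RNAi inputs, and at 7.19 to 9.55 and 0.462 to 2.33 CPM in the IPs, so both kinds of library separated and the ratio did not.

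At 34d the same comparison in neurons called 0 of 10110 genes by edgeR, with 851 at an unadjusted p under 0.05. Of the 126 genes called higher at 5d, 111 had a positive change at 34d with a median of 0.34, and of the 32 called lower, 26 had a negative one with a median of -0.36. The median at 34d was 0.01 over all genes and 0.06 in the group of longest coding genes. The share of all genes with either sign at 34d was not counted. The difference between the ages, tested as a 3-way interaction, was called for 2 of 10855 genes (0.0184%), both with a change that was less negative or positive at 34d. These were su(f), at -1.81 at 5d and 0.43 at 34d (difference 2.27, adjusted p = 0.037), and Cyp4g1, at -9.47 and -0.38 (difference 9.72, adjusted p = 0.037). RLE scaling in place of TMM called neither. For Nlg3 the change was 1.91 at 5d and 0.40 ± 0.21 at 34d, a difference of -1.49 that missed the threshold (adjusted p = 0.121), and for PNPase it was 2.19 and -0.04 (adjusted p of the difference 0.0666).

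In glia at 5d, with RepoGal4 in place of ElavGal4, 14 genes were called higher (0.137% of 10240) and 53 lower (0.518%). Of the 126 genes called higher in neurons, 101 had a negative change in glia with a median of -0.30, and 4 were called lower there. The median in glia was 0.0009 over all genes, and the share of all genes with either sign in glia was not counted. The difference between glia and neurons, tested as a 3-way interaction, was called for 48 genes as higher in glia (0.448% of 10718) and for 338 as lower (3.15%). It was called for 103 of the 126, all lower in glia, and for 12 of the 32, all higher in glia. The 126 were chosen for a large change in neurons, which enters the difference, so this count is given as a description.

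Nlg3 had the smallest p of these, with 1.91 ± 0.26 in neurons and -1.05 ± 0.24 in glia (difference -2.995, adjusted p = 0.00013). CG14989 (1.38 and -0.64), CG42541 (1.02 and -0.96), Con (1.48 and -0.74) and dpr1 (1.27 and -0.86) had the same signs, with adjusted p of the difference from 0.00013 to 0.00034. On the other side were Cyp4g1, su(f) (-1.81 in neurons and 0.37 in glia), CG14495 (-2.74 and -0.05), CG16772 (-0.91 and 1.18) and nclb (-1.55 and 1.17). The channels cac (0.83 in neurons and -0.91 in glia, adjusted p of the difference 0.00247) and SK (0.79 and -0.71, adjusted p = 0.00201) were also called for the difference. Their change in neurons alone had missed the threshold. Both were named for a small p in neurons, and that change enters the difference, so these values are given as a description.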

How the data were processed

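The authors deposited raw counts of reads per gene for 17562 genes. Per the paper's methods and the submitters' processing notes, reads were trimmed with Trim Galore and aligned to dm6 with STAR 2.7.3a, improperly paired reads were removed, and reads were counted on FlyBase genes by summarizeOverlaps in union mode. The strand setting of the counting is not given in the sources used here.

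From the deposited counts, edgeR 4.0.16 (R 4.3.3) was run with TMM scaling, filterByExpr and the quasi-likelihood test, with each input paired to the IP of the same genotype and replicate number and the difference of IP/input between genotypes as the ratio change. Control input 4 has no partner among the IPs and entered only the test of inputs. P-values were adjusted by Benjamini-Hochberg over all genes tested, with a threshold of 0.05. Changes of ribosome-bound and input RNA were tested alone, and 3-way interactions with 34d neurons and 5d glia were fitted. Per-pair ratios are differences of log2 CPM with a prior count of 2. Depth ranged from 2132983 to 13249059 counts, and intervals and floors cover counting error only. The fit was tried on simulated counts that held no effects of single pairs, so that trial cannot speak to the dependence on single replicates.

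Of the genes, 16847 matched the annotation by symbol, 641 by synonym and 74 not. Genes named are the 15 with the largest change on each side among called genes with at least 10 CPM in 1 group and no overlap of pairs, 5 on each side for the IP, input and 3-way tests, and up to 4 of each of 29 lists by p. Mettl3, RpL3 and the m6A writer and reader genes were examined in any case, and the 3-way tests name the genes with the smallest p. The lists and the comparison were chosen with earlier results of these data known. DESeq2 1.42.0, limma 3.58.1 (pseudocount 1 CPM), other scalings, filters and blocks, single replicates left out, nuclear protein-coding genes alone and the inputs without control 1 and 4 were tried; the last 2 were chosen after seeing the data.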

Additional observations from a re-analysis of the deposited data

Results flagged for a closer look

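Single samples stood far from the rest of their group in 6 of 68 groups of values, against about 1 in 20 by chance. The neuron markers summed to 9148 CPM in Mettl3 RNAi input 3, and the photoreceptor markers to 33695 CPM in Mettl3 RNAi input 4. The muscle markers summed to 290.3 CPM in Mettl3 RNAi IP 4 and 1255 CPM in its input, and the fat body markers to 1919.7 CPM in control input 1. The log2 ratio of Panx was 0.65 in Mettl3 RNAi replicate 1.

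The change of the ratio differed between 34d and 5d neurons for 2 genes by the interaction test of edgeR, su(f) (2.27) and Cyp4g1 (9.72, with 0 reads in control IP 3 and in control inputs 3 and 4). It differed between glia and neurons at 5d for 386 genes. Those with the smallest p on the side higher in glia were Cyp4g1 (9.58), su(f) (2.13), CG14495 (2.57), CG16772 (2.04) and nclb (2.69). On the side lower in glia they were Nlg3 (-2.995), CG14989 (-2.05), CG42541 (-2.02), Con (-2.27) and dpr1 (-2.17).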

How the results depend on the processing

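Total library size turned the balance of calls, from mostly higher to mostly lower for the ratio and the other way for ribosome-bound RNA. Without control replicate 1 the median change turned from 0.09 to -0.17 for cytosolic ribosomal proteins, from 0.11 to -0.08 for the proteasome, from 0.06 to -0.08 for muscle markers and from 0.02 to -0.02 over all genes. Counts of genes called higher and lower were as follows, and the cause of their differences was not tested. For the IP/input ratio (126 and 32), DESeq2 called 322 and 135, no filter on low counts 355 and 131, one fit of 5d and 34d neurons 262 and 70, inputs and IPs without their pairing 50 and 5, replicates 1 to 3 alone 1 and 2, total library size 4 and 7, and limma on per-pair ratios 0 and 0. For ribosome-bound RNA (62 and 119), DESeq2 called 484 and 566, no filter 214 and 223, replicates 1 to 3 alone 0 and 4, and total library size 276 and 45, while nuclear coding genes alone gave 73 lower. For inputs (6 and 12), DESeq2 called 146 and 374, no filter 24 and 47, replicates 1 to 3 and total library size 0 and 0, a mean count of at least 50 gave 7 lower, and leaving out control inputs 1 and 4 gave 36 and 52. For the difference between ages (2 and 0), DESeq2 called 24 and 55, no filter 24 and 15, RLE scaling 0 higher, and a mean count of at least 50 or no pairing 1 higher. For the difference between glia and neurons (48 higher), DESeq2 called 186, no filter 94 and no pairing 30. The median of non-glia genes minus other genes was 0.52 with nuclear coding genes alone and 0.20 with a lower limit of 1 for the sorted cells. Total library size moved the median over all genes to -0.25 for the ratio, 0.28 for ribosome-bound RNA and 0.55 for inputs.

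When single replicates were left out, the ratio gave 1 to 607 higher and 1 to 286 lower, ribosome-bound RNA 0 to 405 and 2 to 442, inputs 2 to 90 and 0 to 259, the age difference 0 to 6 and 0 to 7, and the glia difference 15 to 202 and 201 to 420. IP against input gave 626 to 1616 and 785 to 1787 in controls and 1295 to 2368 and 1159 to 2448 with Mettl3 RNAi. Medians minus other genes were 0.185 to 0.278 for m6A transcripts, -0.197 to -0.058 for glia genes and 0.263 to 0.618 for non-glia genes.

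Replicate numbers are shared by the genotypes, and same-numbered ratios correlated at -0.07, 0.13 and -0.11. Summed fat body markers were highest in replicate 1 of each group of libraries. They were at 1919.7 and 1197 CPM in its control input and IP and at 1886 and 933 CPM in those of Mettl3 RNAi. Whether same-numbered samples shared a dissection or batch was not tested. With a replicate block across genotypes the counts were 11 and 5 for the ratio, 7 and 14 for ribosome-bound RNA and 20 and 28 for inputs. The depth of the control IPs limits genes with few counts there, such as PRL-1.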
